A study of Mus musculus with 6 samples.

Results

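The 10 genes described here code for chromatin regulators that are recurrently mutated in pancreatic cancer. They are Arid1a, Arid1b, Arid2, Smarca4, Smarca2 and Pbrm1 of the SWI/SNF remodelling complexes, the methyltransferases Kmt2c and Kmt2d of histone H3 lysine 4, the methyltransferase Setd2 of lysine 36 and the methyltransferase Ezh2 of lysine 27. They were taken from a given list and matched by gene symbol, 1 annotated gene each, so they are 10 of 53379 genes in the deposited tables. RNA came from 6 cultures of epithelial organoids, which grow in a matrigel dome, made from pancreatic tumours of KPC mice on a C57/Bl6 background. All 6 carry Pdx1-Cre, in which the Pdx1 promoter drives Cre in the pancreatic epithelium. The 3 heterozygous libraries have the genotype Trp53LSLR172H/+, a p53 R172H allele beside a wild-type allele. The 3 LOH (loss of heterozygosity) libraries have the genotype Trp53LSLR172H/-, so that the wild-type allele is gone. Organoid lines 6, 23 and 34 each gave 1 library of either genotype. Nothing in the labels says that a line of a given genotype was cultured more than once. The descriptions of the LOH libraries have a suffix of unstated meaning, and what it stands for cannot be told apart from genotype. The comparison asks how RNA of these regulators differs once wild-type Trp53 is lost.

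SWI/SNF complexes use ATP to move nucleosomes. Smarca4 and Smarca2 are alternative ATPase subunits. Arid1a or Arid1b belongs to the canonical BAF form, whereas Arid2 and Pbrm1 belong to the PBAF form. KMT2C and KMT2D methylate lysine 4 of histone H3 at enhancers, in complexes that also hold the lysine 27 demethylase KDM6A. SETD2 places the trimethyl mark on lysine 36 along transcribed genes, and EZH2, or its relative EZH1, is the catalytic subunit of Polycomb repressive complex 2 (PRC2), which methylates lysine 27. In pancreatic cancer most of these genes are known for inactivating mutations, while EZH2 is better known for its high level in dividing cells.

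Libraries held between 13680458 and 27917277 expected counts, of which 7383 to 27778 fell on the 10 genes. Total counts of the groups overlapped. Trp53 itself had 77.3, 76.3 and 86.5 CPM (counts scaled to library size with TMM) in heterozygous lines 6, 23 and 34 and 73.5, 52.5 and 47.4 CPM in LOH lines 6, 23 and 34. Its log2 fold change was -0.47 (edgeR adjusted p 0.227). Gene counts do not separate its wild-type from its mutant RNA, so this is a weak check of the labels. All 7 epithelial markers were expressed, with summed levels of 5220 to 6060 CPM across heterozygous and 5130 to 11400 CPM across LOH libraries. Defining markers of other cell types were at or near 0. The 8 fibroblast markers summed to at most 1.11 CPM, the 4 endothelial ones to at most 2.62 CPM and the 5 acinar ones to at most 2.39 CPM, with Col3a1, Prss1 and Ptf1a at 0 in all libraries. The 7 leukocyte markers summed to 1.93 to 2.37 CPM across heterozygous and 3.26 to 14.9 CPM across LOH libraries. Most of that was Cd68, and Ptprc stayed at or under 0.264 CPM while Adgre1 was at 0. Fewer cells expressing a gene and less RNA per cell cannot be told apart in such bulk libraries.

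All 10 genes were expressed well above the filter on low counts, and none of them passed the test between genotypes. In edgeR's quasi-likelihood test 0 of 10 had a Benjamini-Hochberg adjusted p under 0.05, where 5.21% of 14537 tested genes did (3.55% higher and 1.66% lower in LOH), and when the line entered the fit as a block it was again 0 of 10, against 1.47%. At an unadjusted p under 0.05 it was 1 of 10, Smarca2, against 25.3% of all genes. DESeq2 called 0 of 10 as well, against 14.1% of the genes to which it gave an adjusted p. The median log2 fold change, LOH over heterozygous, was 0.44 over the 10 genes and 0.06 over all genes tested. The design detects large changes only. In simulated data drawn from these libraries the test recovered 5 of 66 genes changed 2-fold and 40 of 67 changed 4-fold, so intervals are given below. By direction, 2 genes were higher in LOH in all lines (Smarca2 and Arid1b), 2 were lower in all lines (Smarca4 and Ezh2), and 6 had ratios of opposite sign in different lines. Over all tested genes 44.5% had the same direction in all lines and 55.5% did not, so these counts are near the background and no trait of the set.

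**Figure D1:**
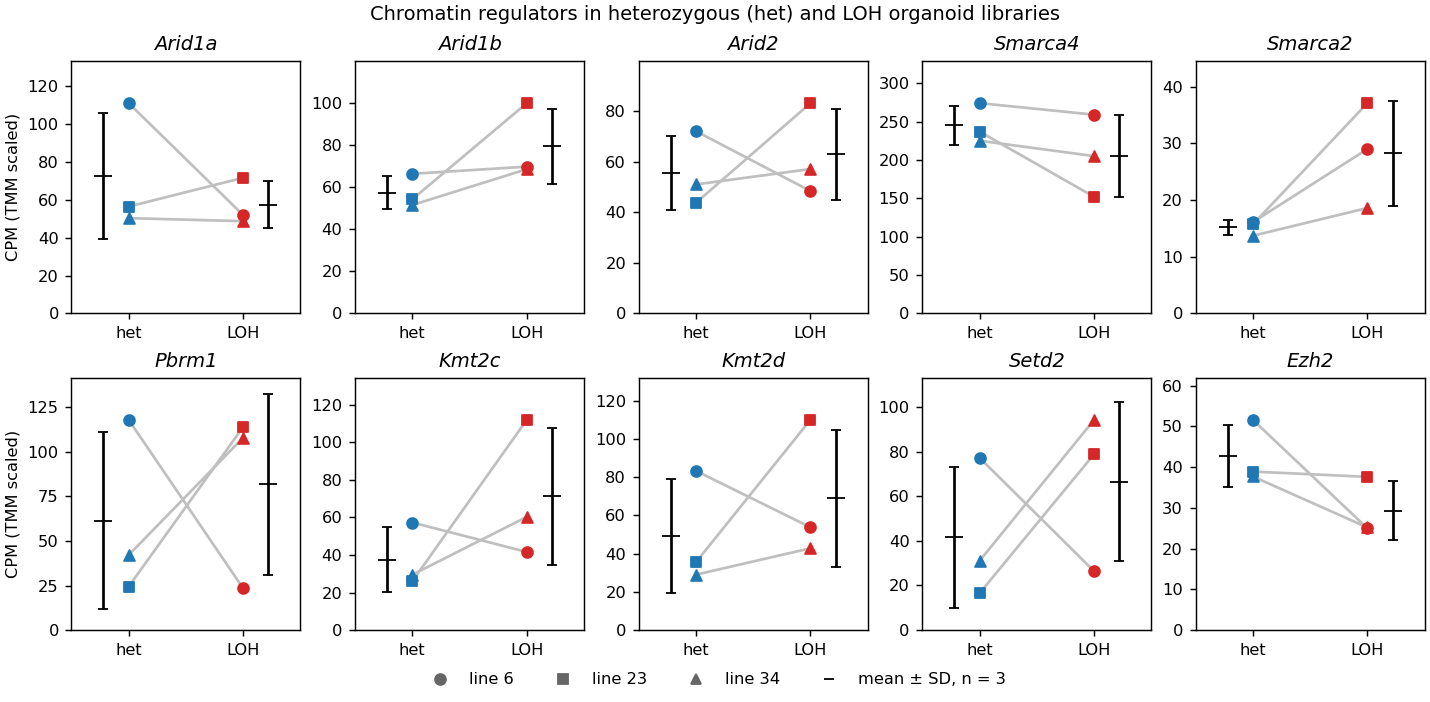
Level of each of the 10 chromatin regulators in CPM (y axes from 0, TMM scaled) in the 3 heterozygous and 3 LOH libraries; marker shapes give the organoid line, grey lines join the libraries of 1 line, and bars are mean ± SD. Groups do not overlap for Arid1b, Smarca2 and Ezh2. For Pbrm1 and Setd2, heterozygous line 6 and LOH lines 23 and 34 are high.

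Per length, Smarca4 was the most abundant RNA of the set, with a mean of 43.3 ± 14.6 TPM (abundance scaled for transcript length and depth; SD over 6 libraries), above Ezh2 in 6 of 6 libraries. Ezh2 followed at 19.8 ± 9.78 TPM and was above Pbrm1 in 5 of 6. Pbrm1 had 12.4 ± 8.8 TPM and was above Arid1a in 3 of 6. From Pbrm1 on, the genes could not be ordered beyond their spread. Arid1a (9.37 ± 5.08 TPM), Arid2 (9.17 ± 3.3), Arid1b (8.87 ± 1.92) and Smarca2 (8.79 ± 2.74) each exceeded the next one in 3 or 4 of 6 libraries, and Setd2 (8.03 ± 4.72 TPM) exceeded Kmt2d in 4 of 6. At the lower end, Kmt2d (6.02 ± 3.01 TPM) and Kmt2c (5.98 ± 2.96 TPM) were likewise not separated. Arid1b was the steadiest, with a highest library 1.56 times the lowest. Pbrm1 was the least steady, with a 6.99-fold range from 3.87 to 27.1 TPM, followed by Setd2 with a 5.12-fold range. Changes between genotypes are given in CPM, since on the log2(TPM + 1) scale the median of all genes itself shifted by -0.353 in LOH.

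Smarca2 (ENSMUSG00000024921.17; chromosome 19, 26605050 to 26778322, plus strand, GRCm38) showed the largest departure relative to its error. It had 16.1, 15.7 and 13.7 CPM in heterozygous lines 6, 23 and 34, from 483, 211 and 409 counts. LOH lines 6, 23 and 34 had 29, 37.1 and 18.6 CPM, from 498, 982 and 399 counts. Every LOH library was above every heterozygous one, with the narrowest gap at LOH line 34. The log2 fold change was 0.90 (SE 0.28, 95% interval 0.24 to 1.55), and the edgeR adjusted p was 0.104. Without LOH line 34 it passed, with a log2 fold change of 1.12 and an edgeR adjusted p of 0.0427. That fit called 796 of 15092 tested genes. Over 20 alternatives the adjusted p for Smarca2 ran from 0.0427 to 0.575. Tested genes of chromosome 19 had a median log2 fold change of 0.35, and the value for Smarca2 was 0.58 with chromosome medians removed. In TPM the groups overlapped, at 8.52, 8.44 and 6.25 in heterozygous and 10.33, 13.27 and 5.9 in LOH lines 6, 23 and 34, and the difference on the log2(TPM + 1) scale was 0.26.

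The other ATPase, Smarca4 (ENSMUSG00000032187.16; chromosome 9, 21616169 to 21704230, plus strand), had 274, 237 and 225 CPM in heterozygous lines 6, 23 and 34. The LOH libraries had 259, 152 and 205 CPM in the same order. The lowest value was that of LOH line 23, where Smarca2 was highest, and the groups overlapped. Its log2 fold change was -0.26 (SE 0.23, 95% interval -0.80 to 0.29, edgeR adjusted p 0.518), and the ratio was below 0 in all 3 lines at -0.08, -0.64 and -0.13. It was -0.08 without LOH line 23.

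Promoters of the 2 ATPase genes are shown because the log2 fold changes of the pair had opposite signs. Each sequence is the 250 bases before the RefSeq start in GRCm38.p6, read 5′ to 3′ on the gene's strand: chr9:21615919-21616168 on the plus strand for Smarca4, and chr19:26604910-26605159 on the plus strand for Smarca2. The Smarca2 window runs past the GENCODE start of the gene at 26605050. Capitals mark GC boxes, the letters GGGCGG on either strand, to which SP-family factors can bind.
Smarca4: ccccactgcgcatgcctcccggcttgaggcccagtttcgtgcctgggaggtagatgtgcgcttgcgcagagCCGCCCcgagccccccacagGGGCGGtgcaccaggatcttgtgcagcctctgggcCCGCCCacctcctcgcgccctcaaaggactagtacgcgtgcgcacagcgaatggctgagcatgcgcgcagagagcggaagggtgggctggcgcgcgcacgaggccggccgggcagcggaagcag
Smarca2: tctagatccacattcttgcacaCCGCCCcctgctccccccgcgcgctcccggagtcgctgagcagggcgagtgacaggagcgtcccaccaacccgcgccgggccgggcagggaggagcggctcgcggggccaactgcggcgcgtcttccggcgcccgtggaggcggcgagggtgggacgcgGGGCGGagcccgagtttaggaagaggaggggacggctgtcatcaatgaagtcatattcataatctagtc
Both are CpG-rich, with 25 CpG in Smarca4 and 28 in Smarca2 against a median of 6 over 32851 promoters of the same length. Smarca4 held 3 GC boxes and Smarca2 held 2, and 32.7% of all promoters held at least 1.

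None of the ARID subunits passed. Arid1b (ENSMUSG00000069729.13; chromosome 17, 4994332 to 5347656, plus strand) had 66.2, 54.1 and 51.4 CPM in heterozygous lines 6, 23 and 34 and 69.6, 99.7 and 68.4 CPM in LOH lines 6, 23 and 34. The groups did not overlap, but the gap between LOH line 34 and heterozygous line 6 was narrow. The log2 fold change was 0.47 (SE 0.22, 95% interval -0.05 to 0.99, edgeR adjusted p 0.237). It was 0.27 without LOH line 23 and 0.07 on the log2(TPM + 1) scale.

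Arid1a (ENSMUSG00000007880.16; chromosome 4, 133679008 to 133756769, minus strand), the most often mutated SWI/SNF gene in pancreatic cancer, had 111, 56.4 and 50.3 CPM in heterozygous and 51.9, 71.6 and 48.7 CPM in LOH lines 6, 23 and 34. A single library, heterozygous line 6, stood above the other 5. The log2 fold change of -0.34 (SE 0.34, 95% interval -1.15 to 0.47, edgeR adjusted p 0.56) turned to 0.08 without that library. Chromosome 4 as a whole had a median log2 fold change of -0.28, and with chromosome medians removed Arid1a had -0.05.

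Arid2 (ENSMUSG00000033237.18; chromosome 15, 96287518 to 96404992, plus strand), the ARID subunit of PBAF, had 72.2, 43.8 and 51.1 CPM in heterozygous and 48.5, 83.3 and 57.2 CPM in LOH lines 6, 23 and 34. Line 6 was lower in LOH and the other lines were higher, at log2 ratios of -0.57, 0.93 and 0.16. Its log2 fold change was 0.18 (SE 0.28, 95% interval -0.49 to 0.85, edgeR adjusted p 0.725), and -0.08 without LOH line 23.

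Groups that did not overlap were seen for 3 of the 10 genes, Arid1b, Smarca2 and Ezh2, where 32.8% of all tested genes had such groups. That share is near the background and is no result about the set.

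Pbrm1 (ENSMUSG00000042323.17; chromosome 14, 31019138 to 31121592, plus strand), which codes for the many-bromodomain subunit of PBAF, had the widest spread of the 10 in log2 CPM. Heterozygous lines 6, 23 and 34 had 118, 24.4 and 42.1 CPM, from 3531, 329 and 1261 counts. LOH lines 6, 23 and 34 had 23.4, 114 and 108 CPM, from 402, 3012 and 2315 counts. Heterozygous line 6 and LOH lines 23 and 34 were thus high, and the other 3 libraries were low. The log2 ratios were -2.33, 2.22 and 1.35 in lines 6, 23 and 34, and the log2 fold change over all lines was 0.41 (SE 0.73, 95% interval -1.30 to 2.12, edgeR adjusted p 0.752).

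Setd2 (ENSMUSG00000044791.16; chromosome 9, 110532597 to 110618633, plus strand) split the same libraries. It had 77.2, 16.5 and 31 CPM in heterozygous and 26.4, 78.8 and 94.2 CPM in LOH lines 6, 23 and 34. The log2 ratios were -1.54, 2.25 and 1.60, and the log2 fold change was 0.67 (SE 0.64, 95% interval -0.85 to 2.19, edgeR adjusted p 0.539). Across the 6 libraries Pbrm1 and Setd2 had a Pearson correlation of 0.96 in log2 CPM, the highest of the 45 pairs among the 10 genes. The correlation is a description, since the libraries share 3 lines. Without both libraries of line 6, Pbrm1 had a log2 fold change of 1.70 (edgeR adjusted p 0.0457) and Setd2 one of 1.82 (edgeR adjusted p 0.0493). That fit called 1422 of 14727 tested genes. Without both libraries of line 23 the values were -0.29 for Pbrm1 and 0.15 for Setd2, and leaving out single libraries gave 0.02 to 1.26 and 0.29 to 1.44.

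The H3 lysine 4 methyltransferases were highest in LOH line 23. Kmt2c (ENSMUSG00000038056.15; chromosome 5, 25271798 to 25498783, minus strand) had 57.3, 26 and 29.5 CPM in heterozygous and 41.6, 112 and 60.3 CPM in LOH lines 6, 23 and 34. Its log2 fold change of 0.92 was the highest of the 10 (SE 0.45, 95% interval -0.13 to 1.98, edgeR adjusted p 0.249), although heterozygous line 6 lay above LOH line 6. Leaving out LOH line 23 brought it to 0.43. Kmt2d (ENSMUSG00000048154.16; chromosome 15, 98831669 to 98871204, minus strand) had 83.3, 35.5 and 29 CPM in heterozygous and 53.8, 110 and 42.8 CPM in LOH lines 6, 23 and 34. The 2 libraries of highest level, heterozygous line 6 and LOH line 23, were of opposite genotype. Its log2 fold change was 0.48 (SE 0.50, 95% interval -0.71 to 1.67, edgeR adjusted p 0.574), and -0.03 without LOH line 23.

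**Figure D2:**
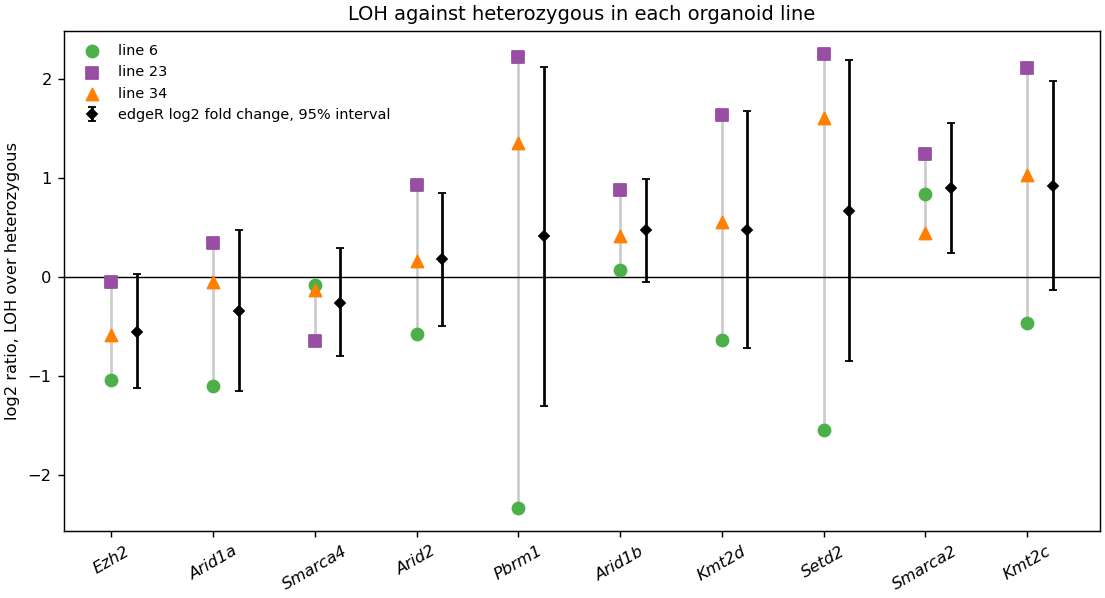
Log2 ratio of LOH over heterozygous in organoid lines 6, 23 and 34 (coloured markers) and the edgeR log2 fold change over all lines with its 95% interval (black), for the 10 genes in order of that value. Line 6 lies below 0 and lines 23 and 34 above 0 for Arid2, Pbrm1, Kmt2d, Setd2 and Kmt2c.

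In all, 5 genes (Arid2, Pbrm1, Kmt2c, Kmt2d and Setd2) were lower in LOH in line 6 and higher in lines 23 and 34. The share of all tested genes with this pattern was not determined, and 55.5% had opposite directions among the lines. The count is therefore not read as a trait of the set. The mean effective transcript lengths of these 5 genes were 6542, 5740, 8736, 9748 and 6477 bases. Arid1a (7167 bases) and Arid1b (7560 bases) were also long and did not have this pattern of lines. Some shorter genes of the lists had it, such as Suz12 (3610 bases) and Bmi1 (1660 bases). The log2 ratios of Bmi1 were -1.19, 1.39 and 1.53 in lines 6, 23 and 34. In these libraries level varied with transcript length. Over the 613 tested genes with an effective length over 6000 bases, the median deviation of log2 CPM from the gene's own mean was 0.25, -0.37 and -0.29 in heterozygous lines 6, 23 and 34. It was -0.16, 0.49 and 0.16 in LOH lines 6, 23 and 34. Among 6585 genes under 2000 bases it stayed between -0.09 and 0.12. Long genes were thus high in the same 3 libraries as Pbrm1 and Setd2, and their median log2 fold change was 0.36. The 1670 genes of 4000 to 6000 bases, among them Pbrm1 and Smarca4, followed the same order, from -0.16 to 0.26. With a smooth length trend removed from each library, an alternative chosen after seeing the data, the log2 fold change was 0.13 for Pbrm1, 0.37 for Setd2, 0.44 for Kmt2c, 0.04 for Kmt2d and -0.19 for Arid2. It was 0.04 for Arid1b, -0.67 for Arid1a, -0.48 for Smarca4, 0.79 for Smarca2 and -0.61 for Ezh2. None of the 10 passed. Whether transcript length takes part in the split between lines was not tested. The SDs of log2 CPM over the 6 libraries were 1.12 for Pbrm1 and 1.03 for Setd2, above those of 87% and 84.9% of all tested genes, most of which are shorter.

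**Figure D3:**
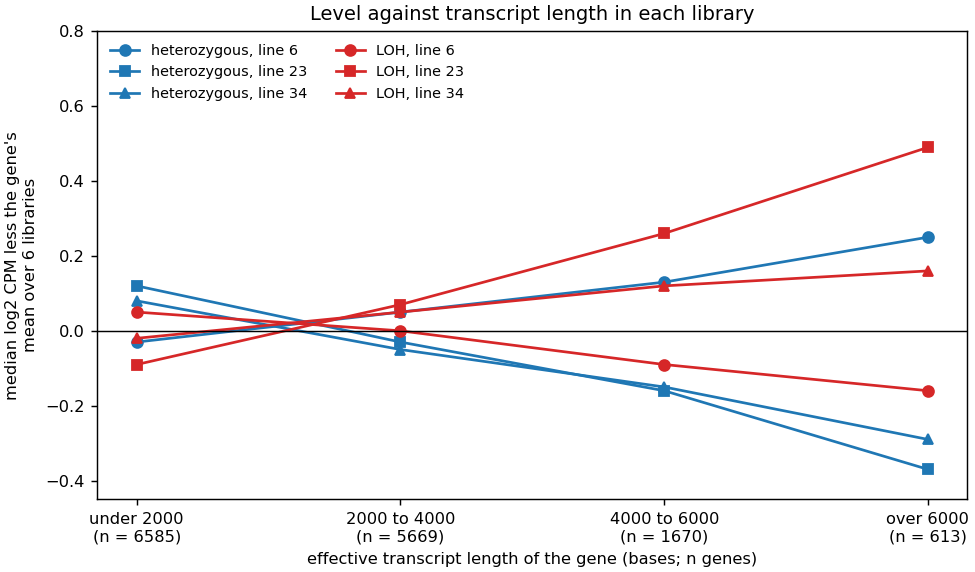
Median over genes of log2 CPM less the gene's mean over the 6 libraries (y axis) in 4 bins of effective transcript length (x axis, with the number of genes), 1 line per library. In genes over 6000 bases the medians run from -0.37 in heterozygous line 23 to 0.49 in LOH line 23.

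Several annotated genes overlap Pbrm1 on the opposite strand. The library kit was stranded per the labels, but the strand setting of the counting is not given in the sources used here. The abundant one, Gnl3, had 112, 94.5 and 108 CPM in heterozygous and 70.6, 41.1 and 46.7 CPM in LOH lines 6, 23 and 34. Gnl3 (31012433 to 31019152, minus strand) starts at 31019152, just past the start of Pbrm1 at 31019138. The genes thus overlap only at their starts and run apart from there. The part of Gnl3 in the Pbrm1 values was not tested. Overlapping genes of the other members reached at most 1.55 CPM.

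Ezh2 (ENSMUSG00000029687.16; chromosome 6, 47530139 to 47595341, minus strand) was lower in LOH in every line in CPM. It had 51.6, 38.9 and 37.7 CPM in heterozygous lines 6, 23 and 34, on 1548, 524 and 1130 counts. In LOH these lines had 25, 37.6 and 25.2 CPM, on 430, 996 and 542 counts. In CPM no LOH library reached a heterozygous one, but LOH line 23 nearly did. In TPM the groups overlapped, at 36.78, 17.16 and 24.33 in heterozygous and 11.47, 18.51 and 10.25 in LOH lines 6, 23 and 34. Line 23 was thus higher in LOH in TPM. The log2 fold change was -0.55 (SE 0.24, 95% interval -1.12 to 0.03, edgeR adjusted p 0.215), and it stayed below 0 in all 20 alternatives, from -0.93 to -0.31. The summed level of 28 proliferation genes was 3710 to 4230 CPM across heterozygous libraries and 2360 to 3270 CPM across LOH ones. Of the 28 in that list 0 passed, and 12 had an unadjusted p under 0.05, all lower, where 25.3% of all genes had such a p and 10.6% were lower with one. The median log2 fold change was -0.67, and 3 genes had values above 0, Mki67 (0.80), E2f2 (0.31) and Bub1 (0.15). Mki67, a marker of dividing cells, had 395, 64.8 and 131 CPM in heterozygous and 64.6, 403 and 564 CPM in LOH lines 6, 23 and 34, high in the same 3 libraries as Pbrm1 and Setd2. Its effective length is 9740 bases, which places it among the long genes described above. Among LOH libraries, line 23 had the lowest summed proliferation level, 2360 CPM, and the highest Ezh2, 37.6 CPM. Whether the level of dividing cells takes part in the Ezh2 value was not tested.

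Its relative Ezh1 (ENSMUSG00000006920.14; chromosome 11, 101191115 to 101226463, minus strand), which is known for expression in non-dividing cells, rose. Ezh1 had 18.9, 24.8 and 18.9 CPM in heterozygous lines 6, 23 and 34 and 41.4, 44.7 and 37.9 CPM in LOH lines 6, 23 and 34. Every LOH library was well above every heterozygous one. The log2 fold change was 0.99 (standard error 0.19; edgeR, adjusted p 0.0383). With the organoid line as a block the value was again 0.99, with an edgeR adjusted p of 0.108, and that p was 0.0822 with the length trend removed. Over 20 alternatives its adjusted p ran from 0.00145 in DESeq2 to 0.242 without line 34. Leaving out heterozygous line 6, 23 or 34 gave adjusted p-values of 0.164, 0.12 and 0.215, in fits that called 0 genes in all, where 2272 to 2966 genes had an unadjusted p under 0.05. Without LOH line 23 it was 0.0756, and limma on log2(TPM + 1) gave a difference of 0.48 with an adjusted p of 0.159.

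Promoters of this pair of alternative enzymes are shown for the same reason. They are chr6:47595031-47595280 on the minus strand for Ezh2 and chr11:101226464-101226713 on the minus strand for Ezh1, from the same RefSeq table. By its GENCODE coordinates Ezh2 starts at 47595341, so its whole window lies inside that annotated gene. Positions below count from the RefSeq start. Capitals mark CCAAT boxes (CCAAT on either strand), the site of the factor NF-Y.
Ezh2: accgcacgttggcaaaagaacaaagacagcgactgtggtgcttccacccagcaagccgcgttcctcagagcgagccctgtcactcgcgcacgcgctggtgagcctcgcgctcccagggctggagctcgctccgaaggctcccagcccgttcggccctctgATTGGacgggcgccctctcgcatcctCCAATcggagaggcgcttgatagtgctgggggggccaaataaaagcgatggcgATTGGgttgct
Ezh1: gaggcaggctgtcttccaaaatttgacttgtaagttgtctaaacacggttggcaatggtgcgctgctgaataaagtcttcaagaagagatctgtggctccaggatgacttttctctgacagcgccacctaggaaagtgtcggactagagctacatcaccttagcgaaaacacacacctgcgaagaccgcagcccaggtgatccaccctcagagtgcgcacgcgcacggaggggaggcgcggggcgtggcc
Ezh2 held 3 CCAAT boxes, at 90, 64 and 11 bases before the start, and Ezh1 held none. Over all 32851 promoters 33.8% held at least 1 and 2.79% held 3 or more. Neither window held the E2F letters TTTCCCGC, TTTGGCGC, TTTCGCGC or TTTGCCGC on either strand, which 1.86% of promoters hold, nor TTTGAA, which 16% hold. Such a search says only whether these letters are in the window. Of the 10 genes 9 had an entry in the promoter table, and the exception was Arid2.

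Because some of these genes code for alternative subunits or related enzymes, ratios of TPM were compared within libraries, which also removes the scaling. Ezh2 over Ezh1 was 4.49, 2.43 and 4.18 in heterozygous lines 6, 23 and 34 and 1, 1.73 and 1.21 in LOH lines 6, 23 and 34. All LOH ratios were lower, and the log2 difference was -1.48. Smarca4 over Smarca2 was 7.76, 5.55 and 7.3 in heterozygous and 4.46, 1.85 and 5.17 in LOH lines 6, 23 and 34. Again the groups did not overlap, with a log2 difference of -0.96. Arid1a over Arid1b was 1.74, 1.09 and 1.1 in heterozygous and 0.78, 0.73 and 0.761 in LOH lines 6, 23 and 34, a log2 difference of -0.76. Arid1a thus exceeded Arid1b in each heterozygous library and was under it in each LOH library. These 3 ratios had an exact two-sided permutation p of 0.1, the smallest that 3 against 3 libraries allow, and 0.167 when adjusted over the 5 ratios compared. That test does not use the pairing by line, and a sign-flip test over 3 lines allows no p below 0.25. The 3 ratios lay in the same order in CPM, where the differences were -1.55, -1.13 and -0.72. The remaining 2 ratios overlapped between groups. Arid1a over Arid2 differed by -0.41 (exact permutation p = 0.2) and Kmt2d over Kmt2c by -0.42 (exact permutation p = 0.4). How often ratios of other gene pairs lie apart was not determined. Among single tested genes 32.8% had groups apart in log2 CPM, and 3 of 5 is not read as a result about these pairs.

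**Figure D4:**
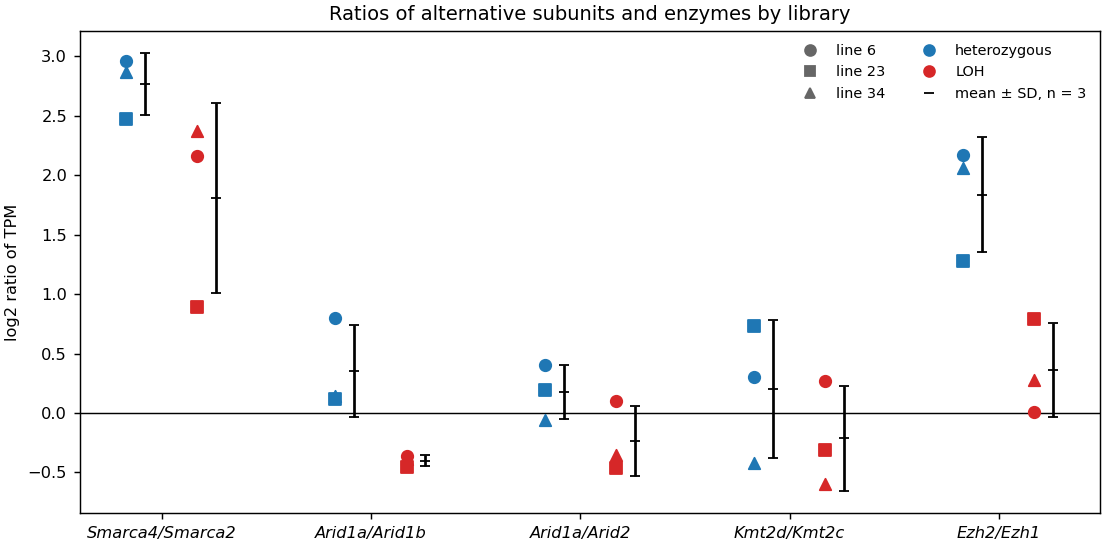
Log2 ratio of TPM for 5 pairs of alternative subunits or enzymes (x axis) in heterozygous (blue) and LOH (red) libraries; marker shapes give the organoid line and bars are mean ± SD, n = 3. The groups are apart for Smarca4/Smarca2, Arid1a/Arid1b and Ezh2/Ezh1 and overlap for the other two.

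For transcript usage within the genes 3 libraries against 3 allow no p below 0.1, so the shares are given as values. The leading transcript held 96.1 ± 0.058% of the counts of Arid2 in heterozygous libraries (Arid2-201; SD, n = 3) and 96.5 ± 1.38% in LOH libraries, and 80.3 ± 0.157% and 81.5 ± 2.56% of those of Smarca4 (Smarca4-204). Kmt2c-201, a transcript of 14967 bases, held 61.6, 56.8 and 61.9% of Kmt2c counts in heterozygous and 65.9, 63.8 and 65.2% in LOH lines 6, 23 and 34. Those groups did not overlap (exact permutation p = 0.1, 0.8 adjusted over the 10 genes). For Ezh2-201 the share was 56.1, 54.1 and 55.2% in heterozygous and 46.4, 56.4 and 39.3% in LOH lines 6, 23 and 34, and Arid1a-205 had 70.3, 76 and 78.2% and 59.9, 81.3 and 52.4% in the same order. In both genes LOH lines 6 and 34 were low and LOH line 23 was not, at an exact permutation p of 0.4 each. Smarca2 has 46 annotated transcripts, and the share of Smarca2-209 ran from 4.55% to 50.3% within the heterozygous group alone, a wider range than that between the group means. Transcripts annotated as nonsense-mediated decay held 12.5% to 33% of Smarca2 counts. Retained-intron transcripts held at most 9.9% in any gene and library, for Ezh2. The high and low libraries of Pbrm1 had similar makeups, with Pbrm1-207 at 50% to 62.2% and protein-coding transcripts at 97.8% to 99.6%.

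The other genes of these complexes were read from lists of 10 to 28 tested genes each. Over all lists together edgeR called 2 genes and DESeq2 called 22. Among all genes the shares called were 5.21% in edgeR and 14.1% in DESeq2. Of 27 tested SWI/SNF subunits 0 passed in edgeR, with a median log2 fold change of -0.16. In that list 6 of 27 had an unadjusted p under 0.05, where 25.3% of all tested genes had one, so the count is near the background. Of the 6, Smarca2 and Ss18l1 (0.62) were higher, and Smarcb1 (-0.49), Actl6a (-0.63), Brd9 (-0.91) and Bcl7a (-0.92) were lower. Smarcb1, a core subunit of BAF and PBAF, had 48.8, 51.4 and 52.6 CPM in heterozygous and 34.6, 35.2 and 38.7 CPM in LOH lines 6, 23 and 34. The groups were apart and tight, at an edgeR adjusted p of 0.118. Bcl7a had the smallest adjusted p of the list at 0.0688, with means of 15.2 ± 0.195 and 8.02 ± 1.78 CPM (SD, n = 3 each).

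Among 12 tested PRC2 subunits Ezh1 was the gene that passed (8.33%, against 5.21% of all genes), and the median was 0.13. Rbbp4 (-0.84) and Epop (-1.25) were lower and Phf1 (1.10) was higher, with edgeR adjusted p-values of 0.0565, 0.0577 and 0.0826. Eed, the subunit that reads the lysine 27 mark, had 33.5, 33.5 and 40.8 CPM in heterozygous and 32.6, 20.8 and 25.8 CPM in LOH lines 6, 23 and 34, a log2 fold change of -0.45 (edgeR adjusted p 0.259). Suz12, the scaffold subunit, went another way. It had 123, 27 and 49.9 CPM in heterozygous and 30, 116 and 116 CPM in LOH lines 6, 23 and 34, and so was high in the same 3 libraries as Pbrm1 and Setd2. Its log2 fold change was 0.39 (standard error 0.67; edgeR, adjusted p 0.742).

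COMPASS-type H3 lysine 4 methyltransferases and their subunits had 0 of 18 past the threshold and a median of -0.07. At an unadjusted p under 0.05 there was 1, where 25.3% of all tested genes had such a p. Wdr5 (-0.87, adjusted p 0.114 in edgeR) and Paxip1 (-0.52, adjusted p 0.198) had the smallest p-values and were lower in all 3 lines, unlike Kmt2c and Kmt2d. Kdm6a, the demethylase partner of both, had 31.6, 24.8 and 23.5 CPM in heterozygous and 20.1, 87 and 43.7 CPM in LOH lines 6, 23 and 34. LOH line 23 stood far above the rest, as for Kmt2c, and the edgeR adjusted p was 0.283. The fold change of Kdm6a was 0.92 on the log2 scale, and 0.26 without LOH line 23.

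Of 21 tested histone lysine demethylases 1 passed (4.76%). Kdm1b, a demethylase of H3 lysine 4, fell: its mean was 29 ± 0.802 CPM in the heterozygous group against 15.8 ± 1.61 CPM in the LOH group (SD, n = 3), and the log2 fold change was -0.87 (standard error 0.18; edgeR, adjusted p 0.0408; 0.136 with the line as a block). It lies on chromosome 13, whose median log2 fold change was -0.36, and with chromosome medians removed it had -0.42 (edgeR adjusted p 0.256). Without heterozygous line 6, 23 or 34 the adjusted p was 0.157, 0.163 and 0.212, without LOH line 23 or 34 it was 0.0796 and 0.0666, and with no filter 0.0534, in a range of 0.00149 to 0.288 over 20 alternatives. The H3 lysine 36 list had 0 of 15 past the threshold (median -0.15). In it 1 had an unadjusted p under 0.05, where 25.3% of all tested genes had one. It was led by the reader Zmynd11 (-0.76, edgeR adjusted p 0.0843) and the methyltransferase Nsd3 (0.59, edgeR adjusted p 0.269). The list of PRC1 subunits and the H2A deubiquitinase had 0 of 25 (median 0.19), and 4 at an unadjusted p under 0.05, against the same 25.3%. Cbx2 (-0.52) was lower and Cbx7 (0.58) higher, at edgeR adjusted p-values of 0.148 and 0.172. Bap1, the deubiquitinase, had a log2 fold change of -0.07 (edgeR adjusted p 0.888). Other SNF2-type remodellers had 0 of 16 (median 0.11; Chd6 0.49, Ino80 -0.40) and acetyltransferases 0 of 10 (median 0.12; Kat8 -0.60, Ep300 0.57). Without LOH line 23, Ep300 had 0.16, Nsd3 0.36 and Cbx7 0.36, and without LOH line 34 Ino80 had -0.26. At an unadjusted p under 0.05 the remodellers again had 0 and the acetyltransferases 1, against the same 25.3%. In the proliferation list the smallest adjusted p-values were 0.0633 for Rrm2 (-0.86) and 0.0661 for Uhrf1 (-0.84).

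**Figure D5:**
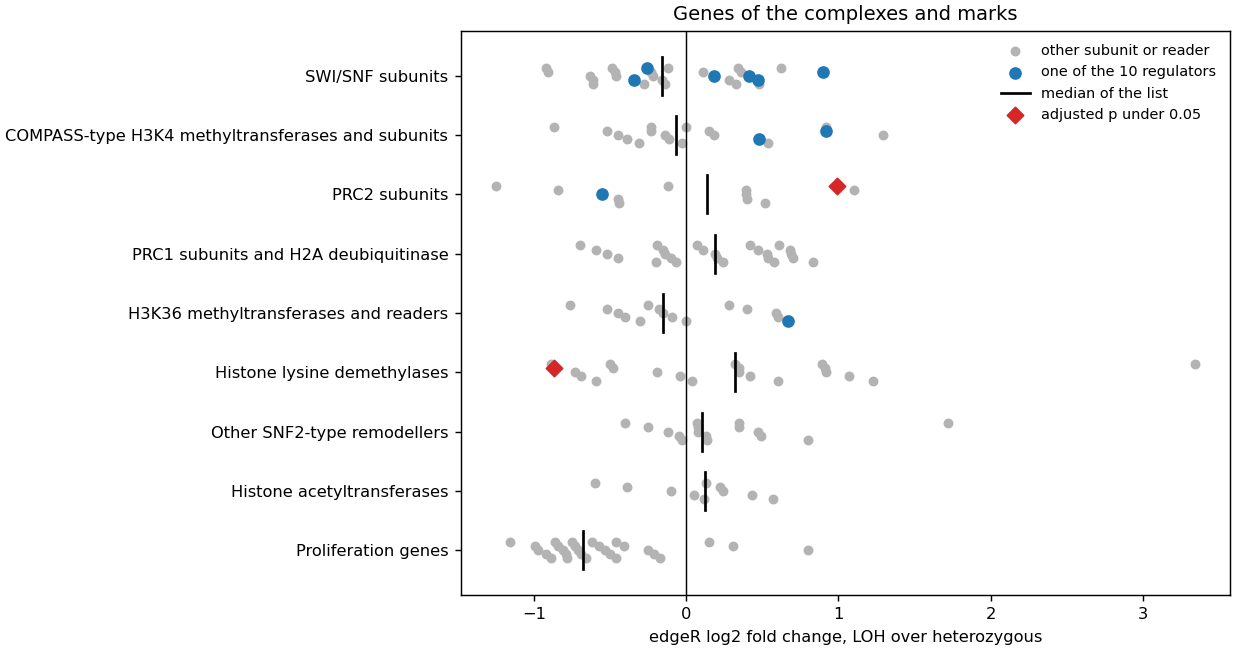
EdgeR log2 fold change, LOH over heterozygous (x axis), of every tested gene in 9 lists (rows); blue points are the 10 regulators, red diamonds passed an adjusted p of 0.05, and black bars are list medians. Ezh1 and Kdm1b are the 2 genes that passed, and the proliferation list has the lowest median, -0.67.

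By pattern over the 6 libraries, 2 genes were compared with all others, Smarca2 and Ezh2, the members with the smallest p-values. Those most like Ezh2 among 10074 with a mean of at least 5 CPM were Plxna1 (Pearson r 0.987 in log2 CPM), Arhgef19 (0.981) and Ptprf (0.978). Those most like Smarca2 were Duoxa2 (0.996), Spdef (0.993) and Zfyve27 (0.992). The correlations describe 6 libraries of 3 lines and were picked as the highest of many. Of these 6 genes Spdef, which codes for an ETS factor of secretory epithelium, passed the test between genotypes, with a log2 fold change of 3.47 (standard error 0.75; edgeR, adjusted p 0.0468; 0.0534 with the line as a block). Without heterozygous line 6, 23 or 34 or LOH line 23 the adjusted p for Spdef was 0.159, 0.168, 0.199 and 0.0806.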

How the data were processed

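RNA-seq of 6 organoid libraries was analysed. Per the submitters' processing notes, the authors used FastQC 0.11.5, STAR 2.5.2b, RSEM 1.3.0, DESeq2 1.44.0 and the mouse build GRCm38.p5. The names of the deposited tables give GENCODE M16, and the strand setting is not given in the sources used here. The deposited expected counts and TPM values per gene and transcript are in the layout of RSEM, with effective lengths and the percent of a gene given to each transcript. The authors' deposited normalized signal equals the expected count, cut to a whole number, divided by a size factor per library. It was used only for checks and for the protein-coding gene list.

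Expected counts were rounded and filtered with edgeR's filterByExpr (14537 genes kept). They were scaled by TMM and tested by quasi-likelihood in edgeR 4.0.16 (R 4.3.3), LOH against heterozygous, with Benjamini-Hochberg adjustment over all genes kept and a threshold of 0.05. Alternatives were the organoid line as a block, other scalings and filters, DESeq2 1.42.0, limma 3.58.1 on log2(TPM + 1) and log2(TPM + 0.1), leaving out each library or line, and removing chromosome medians or, chosen after seeing the data, a loess trend on length. Ratios and transcript shares were tested by exact two-sided permutation in scipy 1.17.1. The test was checked on simulated counts. Counting precision follows library size, and 3 counts were worth 0.1 to 0.223 CPM.

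The labels give both genotypes of a line the same number, so the numbers pair libraries of 1 organoid line. Deviations from the group means correlated at -0.3, 0.01 and 0.29 within lines 6, 23 and 34. Repeat cultures of a line and genotype are not stated, so p-values measure only the spread between these libraries. Coordinates are those of GENCODE M21 on GRCm38, in which 53274 of 53379 gene identifiers were found. Promoter sequences are from RefSeq on GRCm38.p6.

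Members and lists were chosen with earlier results of these data known. Named genes are the 10 members, Trp53, Ezh1, Eed, Suz12, Kdm6a, Smarcb1 and Bap1, each listed gene that passed or else the 2 of smallest p per list, and the 3 genes most correlated with Ezh2 and with Smarca2. Ss18l1, Actl6a, Brd9, Rbbp4, Epop, Phf1, Bmi1, Mki67, E2f2, Bub1 and Gnl3 were named after their values were seen. A further allele that all 6 libraries share is not reported here.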

Additional observations from a re-analysis of the deposited data

Results flagged for a closer look

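For 6 of the 10 genes the log2 ratio of LOH over heterozygous had opposite signs in different organoid lines, as it did for 55.5% of all tested genes. The highest line exceeded the lowest by 4.55 for Pbrm1, 3.79 for Setd2, 2.57 for Kmt2c, 2.26 for Kmt2d, 1.5 for Arid2 and 1.44 for Arid1a. Line 6 was the lowest and line 23 the highest in each of the 6. With a single library of each genotype per line, these differences were not tested.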

How the results depend on the processing

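The small number of libraries limits every call. The 757 genes called became 213 with the organoid line as a replicate block, 2262 in DESeq2, and 1911 and 1753 in limma on log2(TPM + 1) and log2(TPM + 0.1). Leaving out 1 library gave 0 to 2449 calls, and leaving out both libraries of a line gave 1422 without line 6, 0 without line 23 and 0 without line 34. Each fit without a heterozygous library called 0 genes, and the 2449 arose without LOH line 6. Of the 10 regulators 0 were called, except for 1 without LOH line 34 (Smarca2) and 2 without line 6 (Pbrm1 and Setd2). Among all tested genes these fits called 796 of 15092 and 1422 of 14727. Calls in the lists, 2 in all, became 0 with the block, 4 with upper quartile scaling, 22 in DESeq2, 30 and 30 in limma on the 2 TPM scales and 4 with the length trend removed. They ranged from 0 to 38 without 1 library and from 0 to 30 without 1 line. Among named genes the block ended the calls of Ezh1, Kdm1b and Spdef and changed no other.

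Among the fold changes of the 10 regulators under 20 alternatives each, 182 kept direction and side of the threshold, 3 passed it and 15 changed sign. Arid1a ran from -0.56 to 0.08 without 1 library, the latter without heterozygous line 6, and turned to 0.15 without line 6. Arid2 ran from -0.08 (without LOH line 23) to 0.38 without 1 library, and turned to -0.22 without line 23, -0.25 and -0.27 on the 2 TPM scales and -0.19 with the length trend removed. Kmt2d ran from -0.03 (without LOH line 23) to 1.07 without 1 library, and turned to -0.22 without line 23, and -0.04 and -0.03 on the 2 TPM scales. Pbrm1 turned to -0.29 without line 23, -0.06 without line 34, and -0.05 and -0.05 on the 2 TPM scales. Bap1 ran from -0.38 to 0.07 without 1 library (0.03 and 0.07 without LOH line 23 and 34), and turned to 0.06 and 0.13 without line 23 and 34. Suz12 turned to -0.25 and -0.04 without line 23 and 34. The share of the leading transcript changed sign for Arid2 (-0.43 to 0.77 without 1 library) and Smarca4 (-0.17 to 2.32) without LOH line 6, for Pbrm1 (-0.29 to 5.66) without heterozygous line 23, and for Kmt2d (-3.08 to 5.23) without heterozygous line 34, LOH line 23 or LOH line 34, all in percentage points. The 5 ratios kept their direction in all 45 alternatives run. For the other changes the cause was not tested.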
